A study of Mus musculus with 20 samples.

Results

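H3K4me1, the monomethylation of lysine 4 of histone H3, was compared between fasted livers lacking both Cpt2 and Ppara (double knockout, DKO) and fasted livers lacking Ppara alone (Ppara KO). The genotypes are given as Cpt2 L-/- ; Ppara -/- and Ppara -/-, with 2 livers each, from male C57BL/6 mice aged 9 weeks and fasted for 24 hours. All 4 livers therefore lacked Ppara, and the Cpt2 deletion, labelled as confined to the liver, was the difference between the groups. The Cre driver of the Cpt2 deletion is not given in the sources used here. The deposited peak names carry a different animal number for each liver, but nothing says whether mice shared litters or were processed together, so p-values measure only the spread between these samples. The series also holds H3K4me1 of wild-type (WT) and Cpt2 KO livers and H3K27ac of all 4 genotypes, 2 livers each, which are used here only to place the DKO and Ppara KO intervals. Chromatin immunoprecipitation and sequencing gave a list of peaks for each liver. The fold of an interval is the highest fold enrichment over background among the liver's peaks inside it. Of 103014 H3K4me1 consensus intervals in the series, 77364 were called in at least 1 of the 4 livers and 27042 in all 4. Differences are DKO minus Ppara KO on the log2 scale after centring each liver on its median over those 27042 intervals. A pair is DKO 1 with Ppara KO 1 or DKO 2 with Ppara KO 2; the numbers are only names.

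H3K4me1 marks enhancers, both poised and active, and the flanks of promoters, while H3K27ac marks the active ones. Carnitine palmitoyltransferase 2, the product of Cpt2, sits in the inner mitochondrial membrane, and without it mitochondria cannot burn long-chain fatty acids. Ppara is a nuclear receptor that binds fatty acids and, in the fasted liver, drives the genes that break them down and make ketone bodies. A liver without both genes meets the fatty acids of a fast with neither the enzyme nor the receptor.

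One of the 4 livers stood apart. The peaks of Ppara KO 1 shared few bases with those of the others, with Jaccard indices of 0.470 with Ppara KO 2, 0.435 with DKO 1 and 0.452 with DKO 2, while the other 3 livers reached 0.622 to 0.632 with each other. Ppara KO 1 alone accounted for 13892 intervals called in a single liver, 18.0% of the 77364. Its shortest peak was 200 bases long, against 210 to 221 in the other 3 livers, and 71.6% of its called intervals had their middle inside a gene body, against 61.3% to 62.8%. In both measures it lay beside the WT livers (199 bases each, 72.0% and 73.3%) and Cpt2 KO 2 (196 bases, 72.7%), whereas Cpt2 KO 1 (211 bases, 61.8%) lay with Ppara KO 2 and the DKO livers. The main counts that rest on calls are given with and without Ppara KO 1, while counts of promoter windows, of genes and of members within a list are given with all 4 livers only. With the shortest peak length as a covariate, limma called 0 intervals, with 1127 at an unadjusted p under 0.05 and a smallest adjusted p of 0.174. Peak lists held 69790 and 61189 peaks in Ppara KO and 62452 and 66576 in DKO, covering 53.3, 42.7, 38.8 and 46.0 Mb. The depth in reads is unknown.

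**Figure D1:**
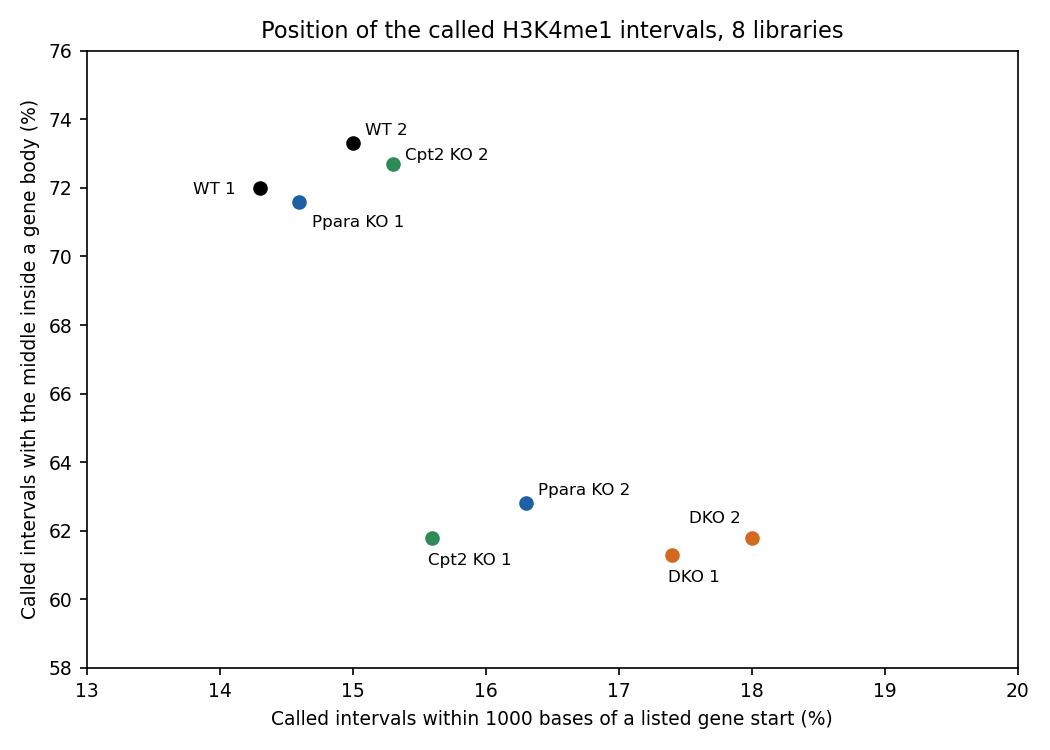
Each point is 1 H3K4me1 library. The horizontal axis gives the percentage of its called intervals within 1000 bases of a listed gene start and the vertical axis the percentage with the middle inside a gene body. Ppara KO 1 (71.6% inside gene bodies) sits with WT and Cpt2 KO 2, and the DKO livers have the highest shares near starts, 17.4% and 18.0%.

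Some of the intervals found in one genotype cover promoters. A promoter window here is the stretch from 250 bases before to 50 after a gene start (RefSeq, GRCm38.p6, the assembly that mm10 names). In all, 29 windows lay wholly inside intervals called in both DKO livers and neither Ppara KO liver (DKO-only), and 16 inside intervals called in both Ppara KO livers and neither DKO liver (Ppara KO-only). The median window held 13 CG dinucleotides in the former and 5.5 in the latter, against 7 over all 32851 windows and 5 over the 1319 windows inside intervals called in all 4 livers. Below, for the 2 genes of each set with the highest H3K4me1, the 250 bases before the start are printed 5′ to 3′ on the strand of the gene, with each CG in capitals.
Matn3: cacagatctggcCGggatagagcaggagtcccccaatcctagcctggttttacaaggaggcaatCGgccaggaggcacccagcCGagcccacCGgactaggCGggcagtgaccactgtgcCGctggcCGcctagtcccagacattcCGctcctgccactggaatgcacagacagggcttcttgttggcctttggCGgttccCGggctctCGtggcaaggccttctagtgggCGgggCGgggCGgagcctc
Lhfpl2: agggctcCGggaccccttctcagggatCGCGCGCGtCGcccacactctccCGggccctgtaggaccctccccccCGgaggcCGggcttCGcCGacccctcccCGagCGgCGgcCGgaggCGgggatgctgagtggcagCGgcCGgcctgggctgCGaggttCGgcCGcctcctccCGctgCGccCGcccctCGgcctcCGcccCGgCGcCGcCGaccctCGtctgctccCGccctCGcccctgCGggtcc
Asic5: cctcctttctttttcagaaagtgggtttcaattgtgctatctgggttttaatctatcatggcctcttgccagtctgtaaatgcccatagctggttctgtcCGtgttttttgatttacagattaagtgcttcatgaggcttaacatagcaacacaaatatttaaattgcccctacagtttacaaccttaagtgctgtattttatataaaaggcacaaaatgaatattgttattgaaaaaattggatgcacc
Lhx2: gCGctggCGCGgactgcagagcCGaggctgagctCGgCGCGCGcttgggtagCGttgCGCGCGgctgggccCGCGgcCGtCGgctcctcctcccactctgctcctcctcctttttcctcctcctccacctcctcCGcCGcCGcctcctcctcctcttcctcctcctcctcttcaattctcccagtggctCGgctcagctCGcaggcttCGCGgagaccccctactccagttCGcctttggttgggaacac
The first pair are DKO-only and the second pair Ppara KO-only. The Matn3 stretch (chr12:8947679-8947928, plus strand), upstream of the gene of the matrix protein matrilin 3, holds 14 CG and lies in an interval with folds of 7.87 and 7.25 in DKO and of 7.44 and 7.11 in Cpt2 KO, and no peak in WT. The Lhfpl2 stretch (chr13:94057546-94057795, plus strand) holds 34 CG, and its interval was called at 6.56 and 7.83 in DKO but also in both WT (6.55, 9.28) and both Cpt2 KO livers (5.49, 8.55). The Asic5 stretch (chr3:81996672-81996921, plus strand), upstream of an ion channel gene of the acid-sensing family, holds 1 CG, with folds of 7.11 and 6.06 in Ppara KO, 8.0 in WT 1, and 9.93 and 6.80 in Cpt2 KO. H3K27ac was called there in both Ppara KO (10.7, 7.16) and both DKO livers (19, 5.95). The Lhx2 stretch (chr2:38351058-38351307, plus strand), upstream of a LIM-homeobox transcription factor gene, holds 24 CG, and its interval was called at 8.75 and 6.0 in Ppara KO, in both WT livers (7.91, 10.8) and in Cpt2 KO 2 (9.0). CG counts over whole windows ran from 1 to 41 in both sets, and the windows are few.

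No interval passed the test between the genotypes. Among the 27042 intervals called in all 4 livers, limma called 0 higher and 0 lower in DKO at an adjusted p under 0.05 (0% called), and 785 higher and 714 lower at an unadjusted p under 0.05 (5.54%). The smallest limma adjusted p was 0.757. The standard deviation of the log2 difference over these intervals was 0.366 between the DKO livers and 0.495 between the Ppara KO livers, against 0.494 and 0.390 within the pairs of different genotype, so the genotypes differed no more than replicates did. Both DKO folds lay above both Ppara KO folds at 4582 intervals (16.9%) and below them at 4784 (17.7%). Both pairs were higher in DKO at 6809 intervals (25.2%) and lower at 6976 (25.8%). With 2 livers against 2, an exact two-sided permutation test of a single interval cannot go below p = 0.333. The differences below are therefore descriptions of these 4 livers.

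**Figure D2:**
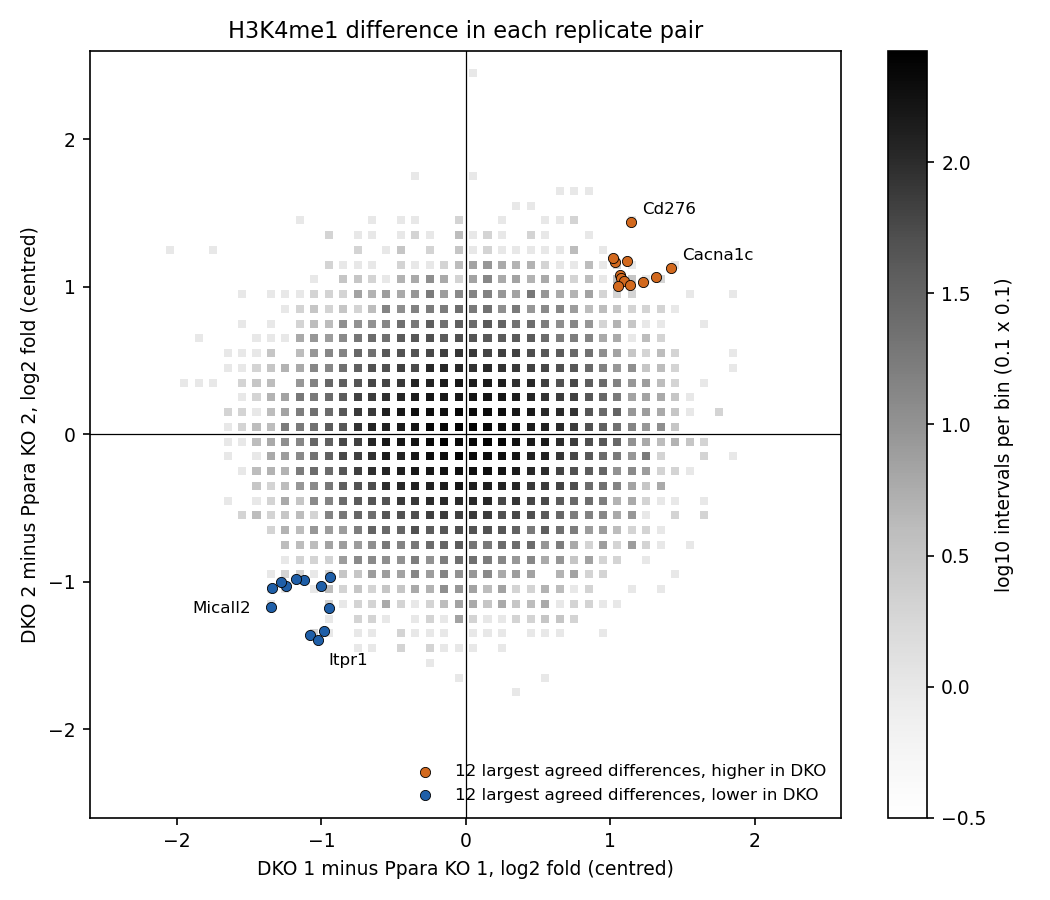
Centred log2 fold difference of the 27042 shared intervals in pair 1 (horizontal) against pair 2 (vertical). Grey squares are bins shaded by the log10 number of intervals, orange and blue points the 12 largest agreed differences in each direction, which sit at opposite corners of the cloud, all beyond 0.94 in both pairs.

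The 12 largest agreed differences in each direction were ranked by the smaller of the 2 pair differences, with 1 interval per gene. Only intervals within 50000 bases of a gene were ranked, and unnamed gene models were passed over. Farther intervals assigned to Cebpb (1.02) and Foxo1 (-0.99) had larger values than some of those ranked. The 24 were chosen on these folds, so their sizes carry no test. The 12th and 13th in rank were 1.0047 (Cux2) and 1.0025 (Gucy2g) above, and -0.943 (Clu) and -0.936 (Foxn3) below. All 24 had limma adjusted p between 0.757 and 0.823.

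The largest agreed higher value was near Cd276, which encodes the immune checkpoint ligand B7-H3. An interval 2820 bases outside the gene (chr9:58520061-58522899) had folds of 4.89 and 5.06 in Ppara KO against 11.1 and 14.0 in DKO. The difference was 1.29 ± 0.29 on the log2 scale (limma standard error, n = 2 livers per group, adjusted p = 0.757). The interval had no peak in either WT liver, folds of 7.19 and 11.8 in Cpt2 KO, and H3K27ac peaks in both DKO (9.56, 11.5) and both Cpt2 KO livers (6.73, 6.95) but in no WT or Ppara KO liver, so both marks separated the livers without Cpt2 from those with it.

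Inside Cacna1c, the gene of the pore-forming subunit of an L-type calcium channel, an interval of 414 bases (chr6:119138018-119138431) had folds of 4.43 and 4.38 in Ppara KO against 12.2 and 9.75 in DKO. It had no H3K4me1 peak in WT or Cpt2 KO, and H3K27ac was called at it in the DKO livers alone (8.61, 6.50). A DKO-only interval lay in the same gene (chr6:119145763-119146711), with folds of 9.50 in each DKO liver and H3K27ac at 4.60 and 5.75 in DKO. Cacna1c thus carried both kinds of difference, and both of its intervals were acetylated in DKO and in no other genotype.

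Inside Nomo1, which encodes a membrane protein of the endoplasmic reticulum, an interval had folds of 6.71 and 7.33 in Ppara KO against 14.4 and 15.8 in DKO, with no peak in WT and 12 and 6.80 in Cpt2 KO. Inside Pid1, an adaptor gene studied in insulin signalling, folds were 4.60 and 6.17 in Ppara KO against 11.0 and 12.9 in DKO, and H3K27ac was 6.50 and 5.25 against 10.6 and 16.4. Near Exd2, an exonuclease gene, folds were 7.50 and 7.98 against 15.7 and 18.3. Near Ets2, a transcription factor gene of the ETS family, they were 4.29 and 6.14 against 9.67 and 12.7. At all 4 of these genes the DKO folds were well above both Ppara KO folds and no WT liver had an H3K4me1 peak.

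Rell1, a gene related to a receptor of the tumour necrosis factor family, had an interval 487 bases from its start with folds of 3.20 and 4.0 in Ppara KO against 8.19 and 8.53 in DKO. Psd3, which encodes an exchange factor for an Arf GTPase, had 5.92 and 8.08 against 13.1 and 18.6. Cux2, a homeobox transcription factor gene, had 6.0 and 7.10 against 12.8 and 14.5. Psd3 and Cux2 were called in both WT livers as well, at 12.4 and 5.0 and at 11.0 and 7.43. Of the remaining intervals, Atp11a (a phospholipid flippase gene) and Tcp11 were called in all 8 livers with differences of 1.07 each, and Iqgap2 (a scaffold protein gene) at 1.11. Of the 12 intervals, 11 had a peak in Cpt2 KO 1, 7 in Cpt2 KO 2 and 5 in each WT liver, and 8 had their middle inside the gene body.

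On the lower side stood 2 genes of hepatocyte transcription factors. Cebpa encodes C/EBPα, which drives metabolic genes in hepatocytes. The interval 2767 bases from its start (chr7:35122060-35125042) had folds of 11.4 and 7.56 in Ppara KO against 5.55 and 3.0 in DKO, a difference of -1.22 ± 0.33 (limma standard error, n = 2 livers per group, adjusted p = 0.783). The WT livers had 13.4 and 11.0 there and the Cpt2 KO livers 4.85 and 6.70. Inside Foxa3, a forkhead pioneer factor gene, an interval (chr7:19018052-19019104) had folds of 8.50 and 6.0 in Ppara KO against 3.68 and 3.0 in DKO, a difference of -1.14 ± 0.30 (limma standard error, n = 2 livers per group, adjusted p = 0.783). Folds in WT were 12.3 and 11.0, against 4.48 and 5.40 in Cpt2 KO, and H3K27ac was called in Ppara KO (9.80, 7.17) and in no DKO liver. At both genes all 4 livers lacking Cpt2 were below all 4 with it, whether or not Ppara was present. H3K27ac at the Cebpa interval did not separate the groups, at 13.4 and 25.5 in Ppara KO against 14.5 and 17.0 in DKO.

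The largest agreed lower value was inside Micall2, which encodes a partner of Rab GTPases at cell junctions, with folds of 10.7 and 9.62 in Ppara KO against 4.30 and 4.36 in DKO. The WT folds there were 3.18 and 7.34 and those of Cpt2 KO 3.88 and 9.97, so the remaining livers spanned both. Inside Itpr1, the gene of an inositol trisphosphate receptor that releases calcium from the endoplasmic reticulum, folds were 8.60 and 10.0 against 4.33 and 3.89, and H3K27ac was 7.17 and 9.60 in Ppara KO and called in no DKO liver. Inside Pdia5, which encodes a protein disulfide isomerase, they were 16.4 and 14.5 against 6.92 and 7.40. The Pdia5 interval is 7861 bases long and has WT folds of 18.2 and 16.0, so it is a strong interval with a lower fold in DKO rather than a weak one near the calling limit.

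Near Tsku, which encodes a secreted protein made by the liver, folds were 14.3 and 15.3 in Ppara KO against 7.33 and 7.67 in DKO, with WT and Cpt2 KO between 14.1 and 16.2. Inside Clu, the gene of the chaperone clusterin, they were 15.7 and 12.3 against 8.38 and 6.40. Near Minpp1, an inositol polyphosphate phosphatase gene, they were 8.86 and 9.50 against 4.71 and 4.29, and H3K27ac was 12.7 and 11.3 against 6.03 and 6.24. The DKO livers were the lowest of the 8 at Tsku and Minpp1, and Cpt2 KO 1 at 6.67 fell within the DKO range at Clu. Enpp3, an ectonucleotidase gene, was lower at an interval 45 bases from its start, with a difference of -1.08, and Rbl2, a gene of the retinoblastoma family, with one of -1.16. Pced1b and Tbc1d16, a Rab GTPase regulator gene, complete the 12, at -1.19 and -1.05. All 12 lower intervals were called in all 8 livers, whereas 7 of the 12 higher ones had no peak in either WT liver.

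**Figure D3:**
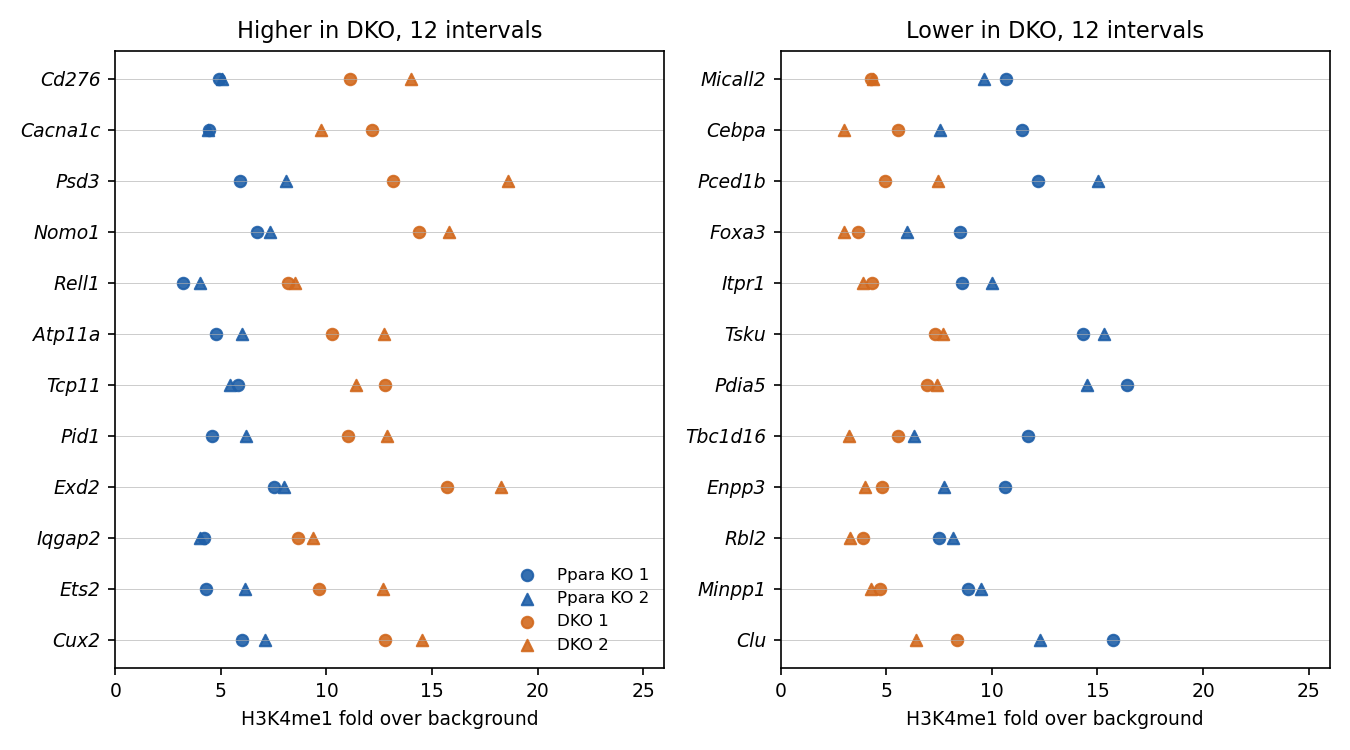
H3K4me1 fold (horizontal axis, linear from 0) in each of the 4 livers at the 12 intervals with the largest agreed differences in either direction. Blue marks Ppara KO and orange DKO, circles replicate 1 and triangles replicate 2; at Rell1 the Ppara KO folds are 3.20 and 4.0 and the DKO folds 8.19 and 8.53.

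H3K27ac, which took no part in choosing these intervals, was set beside them. At the 7 higher intervals acetylated in all 4 livers, centred H3K27ac was higher in DKO at 5, with a median of 0.88, and at the 8 lower ones it was lower at 7, with a median of -0.47. Over the 2685 acetylated intervals at which both DKO H3K4me1 folds lay above both Ppara KO folds, 67.6% had higher H3K27ac in DKO and the median difference was 0.18. Over the 2547 at which they lay below, 40.6% had higher H3K27ac and the median was -0.11. The 15320 acetylated intervals called in all 4 livers gave 52.4% and 0.03. The peak names carry the same animal numbers in both marks, so the marks do not come from independent sets of mice.

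Calls in one genotype only were more numerous in DKO. DKO-only intervals numbered 2979 (3.85% of 77364) and Ppara KO-only intervals 1652 (2.14%). Leaving out Ppara KO 1, so that Ppara KO 2 decided alone, gave 4650 and 4889. Leaving out Ppara KO 2 gave 10288 and 15544, and leaving out DKO 1 or DKO 2 gave 9564 and 2754, or 5920 and 3732. Leaving out a liver enlarges both sets by construction, and its own genotype then needs only 1 call. The larger set was in each case that of the genotype left with 1 liver. These counts therefore cannot show whether the excess on the DKO side rests on Ppara KO 1. The DKO-only and Ppara KO-only intervals are weak. The lower of the 2 folds had a median of 4.96 in DKO-only and 4.94 in Ppara KO-only intervals, while the lowest of the 4 folds had a median of 5.6 over intervals called in all 4, and the median widths were 441 and 682.5 against 1524 bases. Only 65.4% of DKO-only and 40.0% of Ppara KO-only intervals had no peak of the other genotype within 1000 bases, so many lay at the edge of regions marked in both.

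The sets differed in position. Within 1000 bases of a listed start lay 21.9% of DKO-only and 11.4% of Ppara KO-only intervals, against 15.5% of those called in at least 1 liver (counted on chromosomes with listed starts). Without Ppara KO 1 the shares were 24.0% and 11.4%. Inside a gene body lay 49.1% and 79.1%, against 65.1% of those called in at least 1 liver, and without Ppara KO 1 57.7% and 66.7%. The difference near starts was thus kept without the library that stood apart, while most of that inside gene bodies was not.

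The strongest DKO-only interval lay 5950 bases from Cdc42ep5, an effector gene of the GTPase Cdc42 (chr7:4170088-4171475), with folds of 13.1 and 11.1 in DKO, 9.67 and 7.17 in Cpt2 KO and no peak in WT. H3K27ac there was 15.8 and 20 in DKO, 15.7 and 8.50 in Cpt2 KO, and of the remaining livers only Ppara KO 1 had a peak, at 8.14. Near Azin1, which encodes an inhibitor of the antizymes that degrade ornithine decarboxylase, folds were 10.1 and 13.2 in DKO and 8.20 and 5.80 in Cpt2 KO, again with none in WT. Both therefore separated the livers without Cpt2 from those with it. Near Cidea, a lipid droplet protein gene normally active in brown fat and in fatty liver, an interval 2347 bases from the gene (chr18:67369980-67370303) had 8.66 and 9.85 in DKO and 6.27 in Cpt2 KO 1 only.

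Sulf2, an extracellular sulfatase gene, had a distal DKO-only interval at 11.7 and 8.67, and Nrbf2, an autophagy gene, one at 9.18 and 9.09. Trim31, a ubiquitin ligase gene, had one at 14.7 and 9.09, and Resp18 one at 9.20 and 11.2 with H3K27ac in the DKO livers only (6.80, 10.2). All 4 had a peak in Cpt2 KO 1 and none in Cpt2 KO 2 or WT. The interval in Sec24d, a gene of the COPII vesicle coat, was called in all WT and Cpt2 KO livers (6.55 to 8.55) and missing from Ppara KO alone, and that in Ankrd13a in WT 2. Of the 10 strongest, 8 were called in Cpt2 KO 1, 3 in Cpt2 KO 2, 1 in WT 1 and 2 in WT 2. The 10th and the 11th differed little, at a lower fold of 8.635 (Ankrd13a) and 8.629 (Tvp23b).

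Ppara KO-only intervals were mostly inside genes. In Gbe1, the gene of the glycogen branching enzyme, folds were 9.05 and 8.53 in Ppara KO and 8.84 and 8.13 in WT. In Ece1, an endothelin-converting enzyme gene, an interval of 4608 bases had 10.7 and 8.17 in Ppara KO and 11.5 and 10.2 in WT. In Eif2ak3, which encodes the stress kinase PERK of the endoplasmic reticulum, folds were 7.85 and 9.59, with 8.0 and 8.45 in WT and 9.15 and 11.5 in Cpt2 KO. All 3 intervals were thus called in both WT livers too.

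Acat3, an acetyl-CoA acetyltransferase gene, was the one of the 10 strongest whose interval was called in both WT livers (7.91 each) and both Ppara KO livers (9.24, 7.75) and in neither Cpt2 KO nor DKO liver. H3K27ac followed the same split there, at 11.3 and 9.75 in WT and 9.30 and 7.75 in Ppara KO. Near Selenop, which encodes the selenium carrier secreted by the liver, H3K4me1 was called at 7.64 and 8.74 in Ppara KO, yet H3K27ac was called in all 4 livers (23.1 and 14.1 in Ppara KO, 8.51 and 6.23 in DKO). Trit1, Larp4b, U2surp and Selenoi were also among the 10 strongest, with lower folds between 7.62 and 8.03. All 10 had a peak in both WT livers, 9 in Cpt2 KO 2 and 6 in Cpt2 KO 1. The first one left out, near Ppm1b, had 7.619 against 7.625 at Selenoi.

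**Figure D4:**
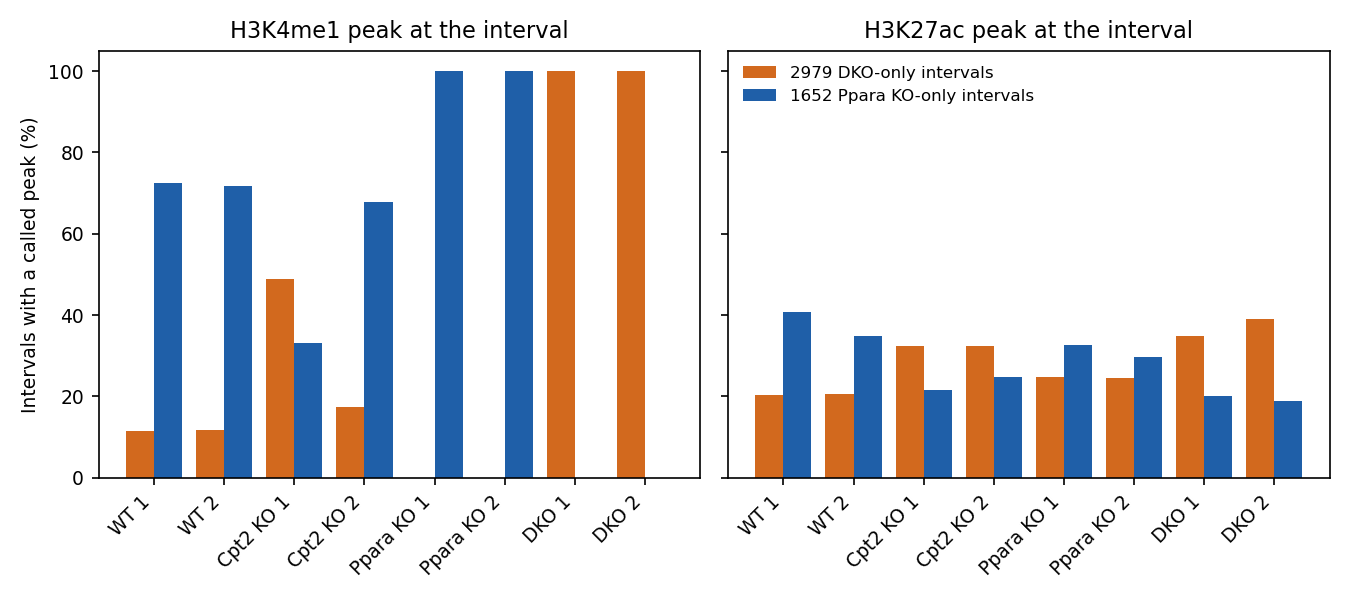
Percentage of the 2979 DKO-only (orange) and 1652 Ppara KO-only (blue) intervals with a called H3K4me1 peak (left) or H3K27ac peak (right) in each of the 8 livers. The bars at 0 and 100 in the Ppara KO and DKO livers on the left are set by the choice of the intervals. Cpt2 KO 1 and Cpt2 KO 2 differ at 48.8% and 17.5% of the DKO-only intervals, against 55.1% and 53.1% of all 77364 intervals.

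The genotypes with Ppara took no part in choosing these sets, and their calls were counted by the presence of Cpt2. Both Cpt2 KO livers and neither WT liver were called at 145 DKO-only intervals (4.87%, against 3.0% of all 77364), and the reverse held at 11 (0.369%, against 2.38%). At Ppara KO-only intervals both WT and neither Cpt2 KO liver were called at 147 (8.90%) and the reverse at 30 (1.82%). Chosen without Ppara KO 1, these shares were 5.33% and 0.989% for DKO-only, and 4.79% and 1.60% for Ppara KO-only. The 2 Cpt2 KO livers were unlike each other here. Cpt2 KO 1 was called at 48.8% of DKO-only intervals and Cpt2 KO 2 at 17.5%, with 11.4% and 11.7% in WT. At Ppara KO-only intervals they were called at 33.2% and 67.8%, with 72.4% and 71.8% in WT. Over all 77364 intervals the shares were 55.1% and 53.1% in Cpt2 KO and 50.8% and 51.6% in WT. At DKO-only intervals each of these livers was therefore below its share over all intervals, Cpt2 KO 1 by the least. Cpt2 KO 2 thus lay near WT in both sets and Cpt2 KO 1 did not. Peak length and gene body share divided the 2 Cpt2 KO libraries the same way. Without Ppara KO 1 in the choice, Cpt2 KO 1 and 2 were at 51.9% and 36.9% of DKO-only intervals, with 28.9% and 30.2% in WT.

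H3K27ac gave a further comparison. Both DKO and neither Ppara KO liver had an H3K27ac peak at 203 DKO-only intervals (6.81%, against 2.53% of all 77364), and the reverse held at 6 (0.201%, against 2.29%). At Ppara KO-only intervals the acetylation was in Ppara KO and not DKO at 132 (7.99%) and the reverse at 14 (0.847%). When Ppara KO 1 took no part in the choice, the shares were 5.55% and 0.602% for DKO-only, and 3.50% and 1.74% for Ppara KO-only. In the genotypes with Ppara, H3K27ac was in Cpt2 KO and not WT at 8.76% of DKO-only intervals, against 0.470% for the reverse. Over all 77364 intervals these shares were 4.96% and 3.91%. The H3K27ac replicates did not show the split of the H3K4me1 libraries. Their Jaccard indices were 0.713 to 0.726 within each genotype. Cpt2 KO 1 and 2 were acetylated at 32.4% and 32.3% of DKO-only intervals, WT at 20.4% and 20.6%. All of these were below the shares over all 77364 intervals, 40.7% and 41.1% in Cpt2 KO and 39.9% and 39.6% in WT.

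Intervals were assigned to the nearest gene. At least 1 DKO-only interval fell to 2430 genes, 17.9% of the 13613 with any interval, and at least 1 Ppara KO-only interval to 1316 (9.67%); 321 genes had both. The genes with most were mostly long ones. Pde4d, a phosphodiesterase gene that degrades cyclic AMP, had 7 DKO-only of 51 intervals, over 1302 kb. Rad51b, a DNA repair gene, had 7 of 78, over 551 kb. Nrg1, which encodes the growth factor neuregulin 1, had 5 of its 13 intervals DKO-only and none Ppara KO-only. Sgms1, a sphingomyelin synthase gene, had 5 DKO-only of 54. Kank1, a cytoskeletal regulator gene, had 5 of 19, in a cluster 11922 to 15843 bases outside the gene, with DKO folds between 3.75 and 9.75. None of these 5 was called in WT, and Cpt2 KO 1 had a peak at 2 of them.

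Among genes with many Ppara KO-only intervals, Irs2 had 5 of 58. Its body is short, at 24.2 kb, but it was the nearest gene to about as many intervals as the long genes below. Irs2 encodes an adaptor of the insulin receptor that is induced in the fasted liver. All 5 of its Ppara KO-only intervals lay outside the gene body, 4 of them 93645 to 131611 bases away and 1 at 3188 bases. Ppara KO folds ran from 4.83 to 8.50 in replicate 1 and from 4.49 to 6.17 in replicate 2. WT 1 had a peak at all 5, WT 2 at 4, Cpt2 KO 2 at 5 and Cpt2 KO 1 at 2, so both DKO livers and, at 3, Cpt2 KO 1 were without a peak. Yet the 29 Irs2 intervals called in all 4 livers had a median difference of 0.13, so the neighbourhood as a whole was not lower. The remaining genes were Gfra1, a receptor gene for glial cell line-derived ligands, with 6 of 48, and Pard3, Nav2, Prkce and Sik3. These last had 5 each, of 67, 49, 82 and 64 intervals, and Sik3 encodes a salt-inducible kinase of fasting metabolism.

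The gene lists start with the pathway that the receptor missing from all 4 livers controls. No list had an interval called by limma, so each is described by its counts beside those of all intervals (3.85% DKO-only, 2.14% Ppara KO-only, median difference -0.00). Over all 27042 intervals called in all 4 livers, 25.2% were higher and 25.8% lower in both pairs. Genes can stand in more than one list. Among 39 fasting target genes of Ppara, 267 intervals held 4 DKO-only (1.5%) and 6 Ppara KO-only (2.25%), and of 131 called in all 4 livers 33.6% were lower and 16.0% higher in both pairs, with a median of -0.07. Mitochondrial oxidation and ketogenesis held 4 and 4 of 128, with 40.0% of 60 lower and 10.0% higher in both pairs and a median of -0.09. Peroxisomal oxidation held 5 and 6 of 172, with 36.5% of 85 lower and 16.5% higher and a median of -0.09. Leaving out Ppara KO 1 gave 13 and 10 for the Ppara targets, so that their balance turned, 5 and 6 for mitochondrial and 10 and 12 for peroxisomal genes. Over all intervals that setting gave 4650 and 4889. Leaving out DKO 1 gave 14 and 10 for the Ppara targets, against 9564 and 2754 over all intervals. The medians of these 3 lists stayed below 0 with any 1 liver left out, between -0.04 and -0.17.

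Single members of the Ppara target and oxidation lists went both ways. Mgll, which encodes monoacylglycerol lipase, had the strongest agreed lower value, with folds of 12.8 and 8.80 in Ppara KO against 5.66 and 4.78 in DKO, while its H3K27ac was 6.64 and 6.23 against 7.34 and 7.21. At Decr1, a dienoyl-CoA reductase gene of mitochondrial oxidation, folds were 12.2 and 8.12 against 7.50 and 5.67. At Slc22a5, the carnitine transporter gene, they were 7.20 and 6.56 against 4.64 and 4.78, and near Crot, a peroxisomal carnitine acyltransferase gene, 7.56 and 6.55 against 5.17 and 4.0. The DKO folds were below both Ppara KO folds at these 4 genes.

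In the opposite direction, an interval near Acot1, an acyl-CoA thioesterase gene, had 5.98 and 5.50 in Ppara KO against 8.39 and 10.8 in DKO, and H3K27ac was called there in DKO (9.50, 7.40) and not in Ppara KO. Near Bdh1, which encodes the last enzyme of ketone body synthesis, folds were 5.0 and 8.09 against 10.8 and 11.0. Near Phyh, the gene of the peroxisomal enzyme that starts phytanic acid breakdown, they were 8.0 and 11.5 against 14.4 and 17.5. Cpt1a, whose enzyme admits long-chain fatty acids to mitochondria upstream of Cpt2, had a DKO-only interval in its body at 5.34 and 5.72, where H3K27ac was 4.67 and 6.75 in Ppara KO against 10.3 and 12.6 in DKO. Both marks were therefore higher in DKO at Acot1 and at this Cpt1a interval, but the 8 Cpt1a intervals called in all 4 livers had a median difference of -0.28. Slc27a2, a fatty acid transporter and acyl-CoA synthetase gene, had 2 Ppara KO-only intervals.

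Among lipid droplet, lipolysis and Pparg genes, 5 of 135 intervals were DKO-only and 3 Ppara KO-only, with a median of -0.09 that became 0.02 without Ppara KO 1, when the counts were 10 and 7. Hilpda, which encodes an inhibitor of lipolysis on lipid droplets, had the highest agreed value of the list, with folds of 4.36 and 6.49 in Ppara KO against 8.71 and 14.7 in DKO at an interval 26133 bases from the gene. H3K27ac was 7.80 and 6.42 against 10.5 and 19.2 there. Near Pparg, the receptor of fat storage, an interval had 7.41 and 8.73 against 13.9 and 13.2, no WT peak and H3K27ac of 8.24 and 5.25 against 14.8 and 21.6. Plin2 (a droplet coat protein), Cidea, Cd36 (a fatty acid transporter), Pparg and Adipor2 (an adiponectin receptor) had the 5 DKO-only intervals. Fitm2, Mgll and Adipor2 had the 3 Ppara KO-only ones.

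Lipid synthesis showed the other balance of calls. De novo lipogenesis and triglyceride genes had 1 DKO-only and 7 Ppara KO-only of 226 intervals, and cholesterol genes 1 and 9 of 187. Leaving out Ppara KO 1, which gives 4650 and 4889 over all intervals, the counts were 3 and 24, and 7 and 16. Fdft1, the squalene synthase gene, held 4 of the 9, all inside the gene, with Ppara KO folds between 4.60 and 8.56. Fdps, the farnesyl diphosphate synthase gene, held 2, and Srebf2, whose product drives cholesterol synthesis, and Msmo1 held 1 each. Mlxipl, the gene of the carbohydrate sensor ChREBP, held 2 of the 7 lipogenic ones, at 4.38 and 6.16 and at 7.85 and 5.07, and Acaca, Elovl3, Elovl5, Elovl6 and Me1 held 1 each. Near Srebf2 a shared interval had 10.6 and 7.55 in Ppara KO against 6.64 and 4.36 in DKO, with H3K27ac of 13 and 17.2 in Ppara KO and none in DKO. At Acly, the ATP citrate lyase gene, folds were 11.4 and 8.07 against 6.80 and 5.0. Cyp51 and Sc5d, later enzymes of cholesterol synthesis, went the other way, by 0.62 and 0.61, and the cholesterol list as a whole had 25.3% of 75 intervals in each direction and a median of -0.03.

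Gluconeogenesis and fasting signalling held 4 DKO-only and 19 Ppara KO-only of 525 intervals, in the list with the most intervals, and a median of 0.04. The counts were 13 and 28 with a median of -0.02 when Ppara KO 1 was left out, and 29 and 26 without DKO 1. Over all intervals these settings gave 4650 and 4889, and 9564 and 2754. The 19 were spread over 9 genes: 5 at Irs2, 4 inside Foxo3 (a forkhead factor restrained by insulin), 3 at Irs1, 2 inside Pcx (pyruvate carboxylase), and 1 each at Trib1, Sik1, Nr3c1 (the glucocorticoid receptor), Trib3 and Sds. Distal intervals near Foxo1 and Irs2 were called in all 4 livers and were lower in DKO, at 10.7 and 14.0 against 5.50 and 6.73 near Foxo1 and 9.44 and 8.50 against 5.10 and 4.0 near Irs2. Ppargc1a, the coactivator gene of gluconeogenesis and mitochondrial biogenesis, had a DKO-only interval inside it (chr5:51595141-51596571) at 8.58 and 6.46, with H3K27ac at 6.93 and 7.28 in DKO and none in Ppara KO. Near Trib1, a pseudokinase gene, a distal interval had 4.86 and 6.50 against 8.87 and 14.7, with H3K27ac of 6.33 and 7.31 against 13.5 and 15.4.

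The integrated stress response and serine synthesis list had the highest median of the 19, at 0.14, with 43.5% of its 46 shared intervals higher and 19.6% lower in both pairs. With any 1 liver left out the median was between 0.04 and 0.12. Without Ppara KO 1, Ppara KO 2 or DKO 1 it was not the highest, as the inflammation list had 0.15, 0.05 and 0.13. Cebpb held 14 of the 46 shared intervals, and the serine synthesis genes Psat1 and Phgdh held 0. Member medians were below 0 at Ddit3 (-0.62), Chac1 (-0.20), Ppp1r15a (-0.17) and Gdf15 (-0.07). Of its 106 intervals 6 were DKO-only (5.66%) and 3 Ppara KO-only (2.83%), or 13 and 8 without Ppara KO 1. Cebpb, a stress and acute-phase transcription factor gene, had an interval 84453 bases away with folds of 5.07 and 6.53 in Ppara KO against 11.6 and 13.5 in DKO, and 2 DKO-only intervals. Near Atf3, an early stress factor gene, an interval had 3.50 and 4.27 against 6.0 and 10.4, and a DKO-only interval (6.10, 6.38) was acetylated in both DKO livers (5.40, 7.07) and no Ppara KO liver. Ddit4, an inhibitor gene of the kinase mTORC1, had 4.17 and 5.29 against 5.68 and 10.1. Psat1 of serine synthesis, Sesn2 and Eif4ebp1 had 1 DKO-only interval each, and Trib3, Sesn2 and Eif4ebp1 1 Ppara KO-only interval each.

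Inflammation and chemokine genes had 7 DKO-only (5.83%) and 0 Ppara KO-only of 120 intervals, and fibrosis and extracellular matrix genes 6 (3.55%) and 0 of 169. Leaving out Ppara KO 1 gave 10 and 4, and 11 and 3. Leaving out Ppara KO 2 gave 16 and 21, and 19 and 44, against 10288 and 15544 over all intervals, and leaving out DKO 2 gave 12 and 2, and 7 and 7. With Ppara KO 2 left out, 1 call made an interval Ppara KO-only, so those counts cannot show whether either balance holds. The fibrosis balance was lost without DKO 2, which gave 5920 and 3732 over all intervals. At 14 of the 43 shared inflammation intervals both DKO folds were above both Ppara KO folds and at 0 below, and the median was 0.09. Over all shared intervals 16.9% lay above and 17.7% below. By the measure used for the lists above, 32.6% of the 43 were higher and 11.6% lower in both pairs. At Il1rn, the gene of the interleukin 1 receptor antagonist, folds were 6.30 and 7.13 in Ppara KO against 11.4 and 12.6 in DKO, and H3K27ac was called in DKO (5.79, 14.2) and in no Ppara KO liver. The 7 DKO-only intervals were near Tnfaip3, Irf1, Ccl2, Ccl5 and Nfkb1, 1 each, and Vcam1, 2. At the Irf1 interval, 313 bases from the start of this interferon regulatory factor gene, H3K27ac was 4.33 and 7.95 in Ppara KO against 14.2 and 22.6 in DKO. Sparc (2), Col4a1 (2), Tgfb2 and Tgfbr2 had the 6 fibrosis ones, and the interval inside Sparc had H3K27ac of 9.59 and 9.40 against 22.8 and 20.

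Marker genes of other cell types were counted beside these lists. Summed folds over intervals of macrophage markers were 21.3 and 20.9 in Ppara KO against 27.7 and 42.3 in DKO, with 2 of 8 markers having a peak in each liver and Clec4f, Adgre1, Cd5l, Vsig4, Timd4 and Marco having none. Endothelial markers, with 7 of 8 having a peak in each liver, summed to 298 and 290 against 277 and 349, with 5 DKO-only and 0 Ppara KO-only of 78 intervals. Stellate and fibroblast markers summed to 19 and 35.9 against 31.4 and 38.8, and those of neutrophils to 0 and 8.22 against 18.2 and 11.7, with S100a8 and S100a9 without a peak. Lymphocyte markers gave 23.2 and 57.8 against 60.7 and 66.9, and those of cholangiocytes 97.5 and 90.6 against 87.2 and 92.8. Hepatocyte markers, which check the labelled tissue, had peaks at 7 of 8 genes in each liver, summing to 487 and 624 against 550 and 585. In whole liver, more cells of a type and more mark per cell cannot be told apart, and the part of these markers in the results was not tested.

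Hepatocyte transcription factors held 9 DKO-only and 15 Ppara KO-only of 487 intervals (13 and 29 without Ppara KO 1), with 32.1% of 243 lower and 20.6% higher in both pairs and a median of -0.04. Beside Cebpa and Foxa3, the Ppara KO-only intervals were at Foxa2 (3), Prox1, Nr1h4, Rora and Nr5a2 (2 each), and Foxa1, Onecut2 and Foxa3 (1 each), among others. A second interval inside Foxa3 (8.37, 4.55) was thus called in Ppara KO and in neither DKO liver, though it was acetylated in all 8. The circadian clock list held 5 and 5 of 197 (7 and 12 without Ppara KO 1). Nfil3, a clock repressor gene, had 3 of its DKO-only intervals, and a shared one at 8.10 and 12.6 in Ppara KO against 15 and 17.6 in DKO with H3K27ac of 11.3 and 14.7 against 20.2 and 19.8.

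Bile acid genes held 6 DKO-only and 8 Ppara KO-only of 221 intervals, and 9 and 20 without Ppara KO 1 (4650 and 4889 over all intervals). Akr1d1, a steroid reductase gene of bile acid synthesis, had 4 of the DKO-only ones and 1 Ppara KO-only, whereas Cyp7a1, the rate-limiting enzyme gene, had a Ppara KO-only interval at 5.20 and 5.17. Near Cyp7b1, the gene of the alternative pathway, a distal interval had 6.92 and 9.0 against 15.8 and 15.5. Xenobiotic P450 genes held 5 and 5 of 155 (7 and 12 without Ppara KO 1), with 3 of the DKO-only ones near Cyp2a5 and 1 near its close relative Cyp2a4, between which short reads may not be assigned with certainty. Antioxidant genes held 2 and 3 of 164 (4 and 7 without Ppara KO 1), and all 3 were near Cat, the catalase gene. At Gstm1 and Gstp1, glutathione transferase genes, folds were 9.29 and 7.86 against 5.88 and 4.02, and 9.25 and 8.05 against 5.0 and 4.80.

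Acute phase and complement genes held 4 and 6 of 196 (7 and 11 without Ppara KO 1), and near Fgg, a fibrinogen gene, folds were 6.94 and 4.12 against 11.8 and 11.2 while H3K27ac was 7.50 and 8.83 against 3.83 and 4.12, so the marks went opposite ways there. Cell cycle and growth genes held 9 and 6 of 340. The counts were 18 and 19 without Ppara KO 1 (4650 and 4889 over all intervals) and 44 and 10 without DKO 1 (9564 and 2754). Among the 9 DKO-only intervals of this list was one inside Yap1, the Hippo pathway coactivator gene, at 7.66 and 11.3. Apolipoprotein genes held 1 and 3 of 124 (2 and 6 without Ppara KO 1), with Apob holding 2 of the 3. At Apoh, a plasma apolipoprotein gene, folds were 8.04 and 5.40 against 3.67 and 3.08. Urea cycle and amino acid genes held 7 and 1 of 304. Without Ppara KO 1 they held 8 and 15, where 1 call made an interval Ppara KO-only and all intervals gave 4650 and 4889.

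**Figure D5:**
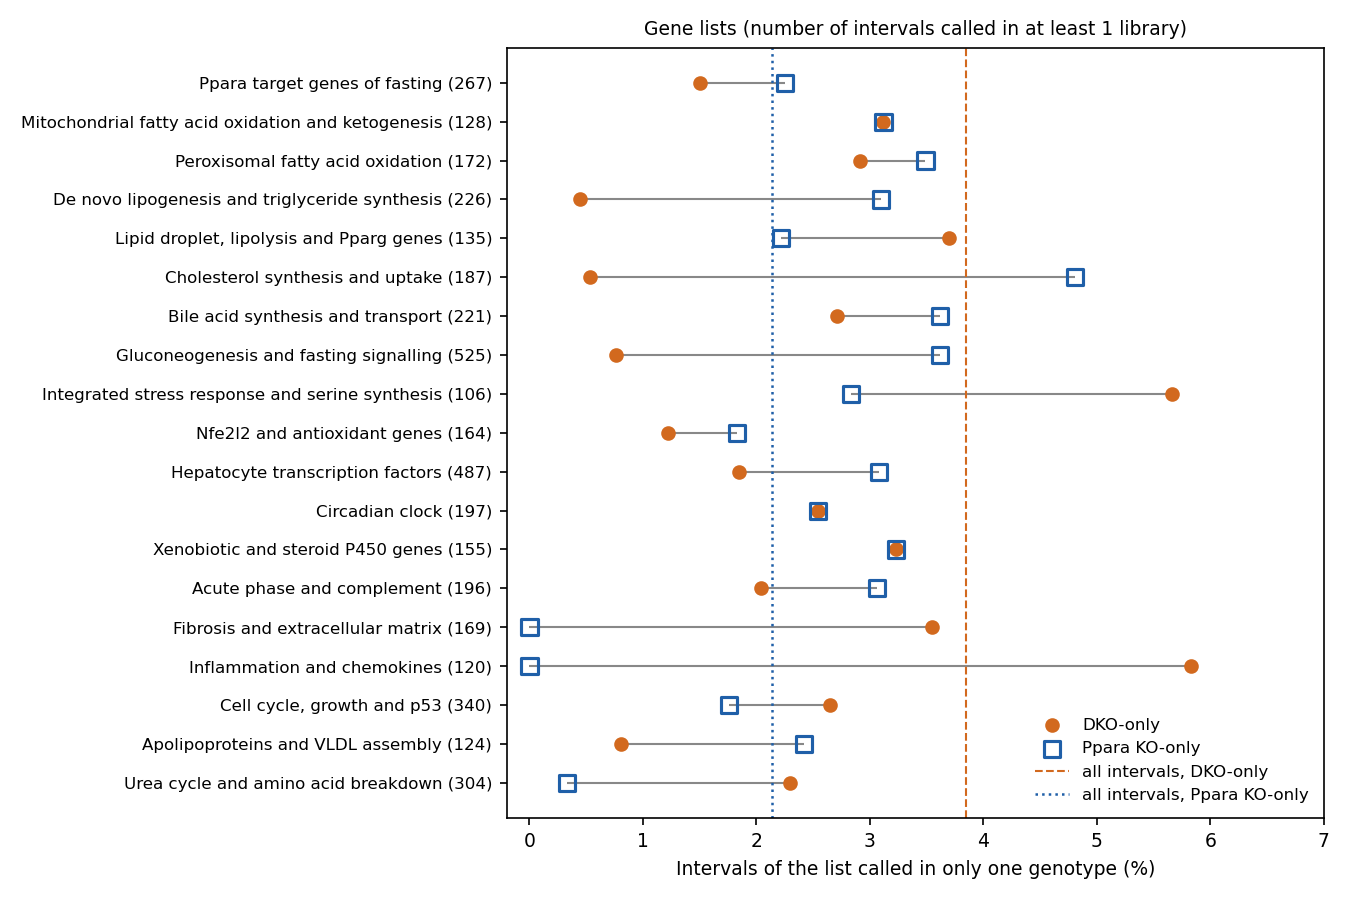
Percentage of each list's intervals that were called in both DKO livers and no Ppara KO liver (orange circles) or the reverse (blue squares), with the number of intervals in brackets. Dashed and dotted lines are the shares over all 77364 intervals, 3.85% and 2.14%; inflammation and fibrosis have no Ppara KO-only interval, and cholesterol synthesis has the highest Ppara KO-only share, 4.81%.

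The deleted genes check the labels in part. Just beyond Cpt2, an interval (chr4:107901656-107903136) had H3K4me1 peaks in both WT livers (8.19, 10.3), both Cpt2 KO livers (5.74, 9.58) and Ppara KO 1 (7.58), and no peak in Ppara KO 2 or either DKO liver. H3K27ac at it was called in WT and Ppara KO (4.78, 5.52) and in no Cpt2 KO or DKO liver. A second interval inside Cpt2 was called in all 4 livers at 5.89 and 6.57 in Ppara KO against 4.58 and 6.54 in DKO. Inside Ppara, which both groups lack, 2 intervals (chr15:85781162-85781762 and chr15:85782240-85784537) were called in all 4 livers of WT and Cpt2 KO and among the Ppara-null livers only in Ppara KO 1, at 5.40 and 4.64. Histone marks need not vanish with a deleted exon, so these values give no proof of genotype.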

How the data were processed

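Fasted mouse livers were profiled for H3K4me1 and H3K27ac by ChIP-seq, 2 livers per genotype, and samples were grouped by their titles. The authors deposited a narrow peak list per liver, with replicates not pooled. Its fold enrichment is a ratio over local background made by the authors. Each deposited peak also has a −log10 p (7.03 or more in the 4 lists compared), a −log10 q and an integer score. The submitters' processing notes name BWA, MACS2 2.1.0 and mm10, with no role, and the threshold and read scaling are not given in the sources used here. In 1 H3K27ac library (Ppara KO 2) the peak names hold a build word other than mm10; it was treated as mm10, since its Jaccard index with Ppara KO 1 was 0.723.

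Each liver's highest fold among peaks sharing at least 1 base with a deposited consensus interval was taken as log2 and centred on the liver's median. Read depth is unknown, and a fold also depends on it. Intervals called in all 4 livers were tested with limma 3.58.1 (R 4.3.3, Benjamini-Hochberg, adjusted p under 0.05), a procedure tested on simulated data. An interval's gene is the one whose body lies nearest its middle, among 21887 protein-coding genes that RefSeq lists for GRCm38.p6; named intervals lie within 50000 bases of the gene, and list members may lie farther. Starts were listed for 17492 genes. The text names the 12 largest agreed differences each way, the 10 strongest intervals and 6 richest genes of each one-genotype set, list members and the deleted genes; unnamed gene models were passed over, and a few named by the rule are not reported here. Members, 19 gene lists and markers were chosen with earlier results of these data known. Of 449 list entries 448 matched a gene. Alternatives covered centring, thresholds, overlap, covariates and leaving out each liver.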

Additional observations from a re-analysis of the deposited data

Results flagged for a closer look

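Intervals at 2 genes had Cpt2 contrasts of opposite sign with and without Ppara, with no overlap of the compared livers in either contrast. Signs were also opposite at Micall2 (0.36 with and -1.21 without Ppara), Tsku and Atp11a, but there the Cpt2 KO and WT folds overlapped. Over the intervals called in all 8 livers, the Iqgap2 interval was lower in both Cpt2 KO livers (4.18, 4.82) than in both WT livers (5.22, 7.53), a centred difference of -0.49, and higher in both DKO livers (8.67, 9.36) than in both Ppara KO livers (4.18, 4.0), a difference of 1.15. The contrasts differ by 1.64. The Pced1b interval was higher in Cpt2 KO (19.5, 13.7) than in WT (13.1, 10.6), by 0.47, and lower in DKO (4.92, 7.45) than in Ppara KO (12.2, 15), by -1.15, so that the contrasts differ by -1.62. The difference between contrasts was not tested, and the intervals were chosen for the second contrast.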

How the results depend on the processing

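No limma call was made under any alternative but 1, without DKO 1, and leaving out each liver gave 0 to 1 calls. Over the 24 intervals with the largest agreed differences, all 272 values under alternatives kept their direction. These intervals were chosen on the same folds because both pairs agreed, so the kept direction was largely fixed by the choice. The replicate number as a block gave 0 calls, 1570 intervals at an unadjusted p under 0.05 and a smallest limma adjusted p of 0.213; same-numbered livers did not deviate together (correlation of deviations -0.01 over intervals), and 2 pairs cannot show a pairing. At an unadjusted p under 0.05 the total ran from 540 without DKO 2 to 4831 without Ppara KO 2, against 1499. The requirement of no peak of the other genotype within 1000 bases left 1949 DKO-only and 661 Ppara KO-only intervals, and leaving out each liver gave 4650 to 10288 and 2754 to 15544; a set decided by 1 liver is larger by construction. DKO minus Ppara KO peak number was -975.5, but 1650 at a −log10 q of at least 10, and with each liver left out it ran from -5276 to 3325. Leaving out each liver, DKO-only intervals called in both Cpt2 KO and no WT liver made up 3.31% to 5.95%, and Ppara KO-only ones called in both WT and no Cpt2 KO liver 4.79% to 7.48% (6.66% with the 1000-base rule). With H3K27ac in the same genotype only, the shares were 4.81% to 6.55% of DKO-only intervals (4.87% where most of a peak had to lie in the interval) and 3.50% to 7.92% of Ppara KO-only ones (3.63% with the 1000-base rule). The cause was not tested. Depth in reads is unknown, so an interval without a peak may carry the mark below the calling limit.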

Other observations

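Without DKO 1, limma called 1 interval (adjusted p = 0.0206), the only call of any alternative; over the alternatives the smallest adjusted p otherwise ran from 0.154 to 1.00. The interval lies 32723 bases from Ccr1, a chemokine receptor gene of myeloid cells (chr9:123927450-123931356), and had a fold of 24.7 in DKO 2, against 5.86 in DKO 1 and 5.67 and 4.33 in Ppara KO, so it rests on 1 liver.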
